A study of Ovis aries with 18 samples.

Results

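The genes described here are 8 listed genes of ion and water transport into the blastocoel, the fluid-filled cavity of the blastocyst, read across 12 pools of sheep embryos. They were listed by gene name and role, with no threshold on measured values, and comprise the sodium pump subunits *ATP1B1* and *ATP1B3*, the aquaporins *AQP3*, *AQP8*, *AQP9* and *AQP11*, the exchanger *SLC9A3* and the cotransporter *SLC12A2*. Of the 8, 7 had a row among the 20092 genes of the count table, and all 7 were among the 16488 genes that passed the filter on low counts. *ATP1B1* was not analysed here. The embryos were blastocysts flushed from superovulated Polypay ewes mated to 6 Polypay rams. The 3 control rams (Ram410, Ram423 and Ram444) ate a basal diet before puberty, and the 3 methionine rams (Ram424, Ram498 and Ram511) ate the same diet with 1.5 g (0.22%) of rumen-protected methionine on top. The methionine was fed to the sires, so diet here always means the diet of the sire. Each pool held 5 embryos, with inner cell mass and trophectoderm together. The control group had 2 pools from each ram, whereas the 6 methionine pools came as 4 from Ram424 and 1 each from Ram498 and Ram511.

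The blastocoel forms as the trophectoderm, the outer epithelium of the embryo, moves sodium inward and water follows by osmosis. The sodium pump on the inward-facing membrane of the trophectoderm, made of a catalytic alpha and a glycosylated beta subunit, drives this flow. Sodium-hydrogen exchangers on the outer face let sodium into the cell, cation-chloride cotransporters load chloride with sodium and potassium, and aquaporins give water a path across both membranes. Some aquaporins, the aquaglyceroporins, also pass glycerol and other small neutral solutes.

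Total counts per pool ranged from 1173289 to 1554651 in the control group and from 1017847 to 2398589 in the methionine group, and levels are given as CPM, the counts of a gene per 1000000 counts of its library after TMM normalization. At this depth the rows of the 7 genes held from 4 to 751 counts in a pool. The lowest count, 4 for *AQP8* in Embryo511_1, corresponded to 3.97 CPM with an exact Poisson 95% interval of 1.08 to 10.2 CPM, which covers counting error only. Because levels are not corrected for transcript length, each gene is compared across pools and not with another gene. A lower level in a pool can mean fewer cells of a type or less RNA per cell, and these cannot be told apart in pooled embryos.

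Embryo444_2, a control pool, and Embryo511_1, the only pool of Ram511, stood apart from the rest. Their Spearman correlations with the other pools over log2 CPM were 0.526 to 0.626, and 0.57 with each other, against 0.806 to 0.955 among the other 10 pools. The sum of the 7 measured trophectoderm markers, of 10 listed, was 224 CPM in Embryo444_2 and 194 CPM in Embryo511_1, against 5250 to 14300 CPM in the other 10 pools. *KRT8*, a keratin of this epithelium, measured 116 and 42.6 CPM in these pools against 3890 to 11900 CPM elsewhere, and the trophectoderm transcription factor *CDX2* measured 2.83 and 7.93 CPM against 23.2 to 110 CPM. The labelled tissue was therefore only weakly marked in these pools, although no measured trophectoderm marker was at 0 and *ELF5*, at 29.0 and 66.4 CPM, was within the 17.1 to 128 CPM of the others. The sum of inner cell mass markers was 72.9 and 93.2 CPM against 209 to 567 CPM, which came from *POU5F1* (14.2 and 39.7 CPM against 132 to 521 CPM), while *NANOG*, *KLF17*, *TDGF1* and *FGF4* were within the range of the other pools. Hypoblast markers summed to 565 and 863 CPM against 956 to 1630 CPM, with *GATA6* (38.9 and 66.4 CPM against 249 to 801 CPM) and *FN1* below the range of the other pools in both. However, *GATA4* was above it in Embryo511_1 (94.2 against 18.2 to 44.3 CPM) and *PDGFRA* in Embryo444_2 (166 against 96.3 to 155 CPM). *LAMA1* was below it in Embryo444_2. *SOX17* had 0 CPM in Embryo511_1, which allows up to 2.97 CPM, against 0.71 to 5.71 CPM in the other 10 pools, so it cannot be placed below them. In the other pool that stood apart, *GATA4*, *PDGFRA*, *LAMA1* and *SOX17* were each within the range. The markers of maternal cells, 6 measured of 13 listed, summed to 310 and 362 CPM against 109 to 185 CPM. Of these, *PTPRC* and *FOXA2* were above the range of the other pools in both and *MUC1* in Embryo444_2 alone, while *PGR*, *ESR1* and *FOXL2* were within it. The part of this difference in the results was not tested, and the 7 genes are given with all 12 pools and with the other 10.

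Most of the transport genes did not follow the trophectoderm markers in these pools. *AQP3* was 2.58-fold below the median of the other 10 pools in Embryo444_2 and 7.53-fold below it in Embryo511_1, lower in both as the keratins were. *AQP8* was high in the first, at 3.06 times that median, and low in the second, at 0.252 times. *AQP9* was at 1.69 and 6.23 times the median and *SLC12A2* at 1.91 and 1.6 times, both above it in both pools. *AQP11* stood at 0.592 and 1.02 times, *ATP1B3* at 0.838 and 0.715 times and *SLC9A3* at 0.56 and 0.719 times. None of the 7 genes approached the loss of *SLC9A3R1*, the scaffold protein NHERF1 that anchors *SLC9A3* at the outer membrane, which was 82.4-fold and 70.6-fold below the median.

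**Figure D1:**
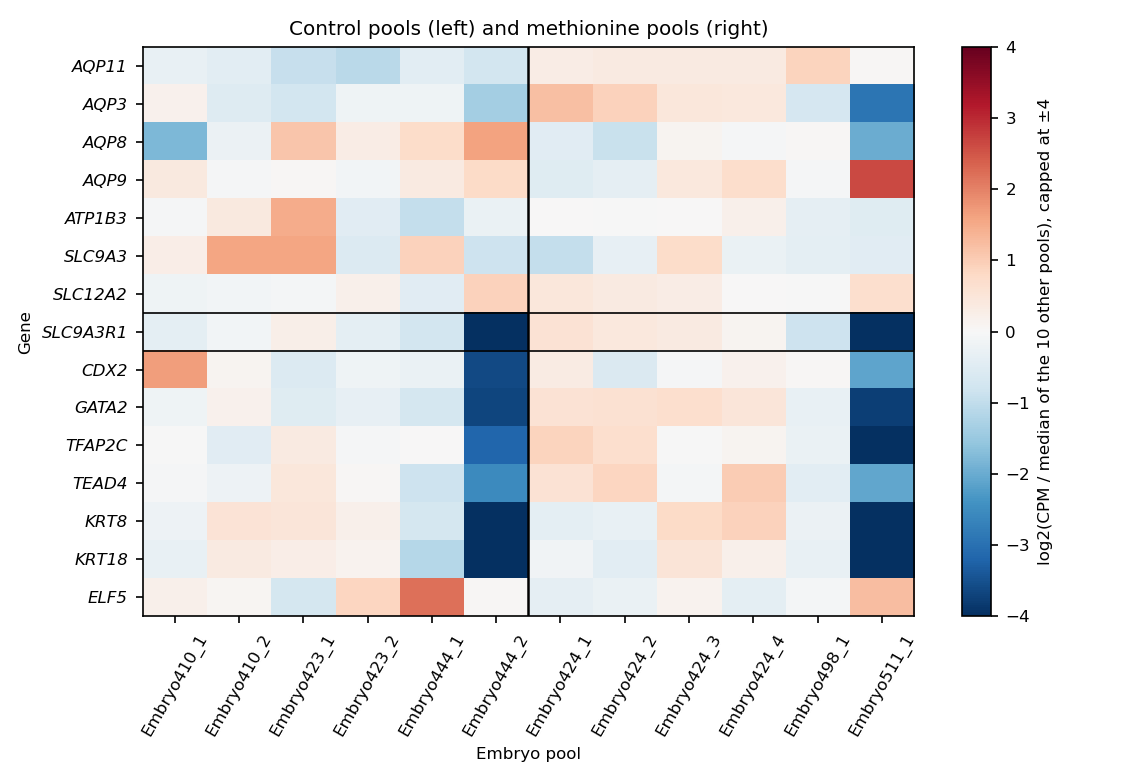
Colour gives the log2 ratio of each pool's CPM to the median of the 10 pools that do not stand apart, limited to ±4, for the 7 transport genes, *SLC9A3R1* and 7 trophectoderm markers, in 6 control pools (left) and 6 methionine pools (right). Embryo444_2 and Embryo511_1 are dark blue for *SLC9A3R1* and for *KRT8* and *KRT18*, whereas among the 7 transport genes only *AQP3* is below the median by more than 2.5-fold in both.

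The diet of the sire was compared first for *AQP11*, an aquaporin that sits mostly in internal membranes such as the endoplasmic reticulum. Its level was higher in the methionine pools, and the groups did not overlap. Control pools ranged from 12.2 to 21.1 CPM with a median of 17.3 CPM, and methionine pools from 26.8 to 48.2 CPM with a median of 33.1 CPM. Every methionine pool was thus above every control pool, a pattern shown by 26 genes, or 0.158% of those tested. The means were 16.8 ± 3.53 CPM (SD, n = 6) and 34.3 ± 7.22 CPM (SD, n = 6), a ratio of 2.05, with an exact two-sided permutation p of 0.00216 over pools, the smallest that 924 assignments allow.

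In the edgeR quasi-likelihood test over all genes, the log2 fold change of *AQP11* was 1.03 ± 0.262 (SE) with an unadjusted p of 0.00109 and an FDR of 0.584, so it did not pass the threshold of 0.05. DESeq2, run on the same counts, gave 1.06 ± 0.259 (SE) with an adjusted p of 0.0443 and called it, as 1 of 16 genes, or 0.097% of those tested. Over its 30 alternative fits the adjusted p ran from 0.0313 to 1. Mean levels were 20.1, 12.9 and 17.4 CPM for the control rams and 32.8, 48.2 and 26.8 CPM for the methionine rams. Ram means must separate where all pools do, so they add no evidence beyond the pools. With 3 rams per diet, the exact permutation p over rams was 0.1, the smallest possible and likewise fixed by that separation.

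*AQP11* also varied little between pools of the same ram. The 4 pools of Ram424 lay between 31.5 and 33.4 CPM, and the ratio of the highest to the lowest pool of a ram was 1.06 to 1.23 across the 4 rams with more than 1 pool. On the log2 scale the SD within these rams was 0.102 (6 degrees of freedom), below the 0.262 that counting error alone gives for their 19 to 67 counts. The agreement is thus closer than these counts can resolve. Without the pools that stood apart, the means were 17.0 ± 3.89 CPM and 35.8 ± 6.93 CPM (SD, n = 5 each). The groups were separate here too, which their separation over 12 pools fixed in advance. For comparison, 0.879% of all genes were higher in every methionine pool of the 10. The exact permutation p of 0.00794, the smallest of 252 assignments, follows from that separation and adds no evidence.

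Other measures that moved with or near *AQP11* were also read. *CLNS1A*, which the RefSeq annotation places over *AQP11* and which was looked up after the values were seen, had 37.5 ± 17.2 CPM in control and 42.9 ± 17.6 CPM in methionine pools, with overlapping groups and an exact permutation p of 0.665 (n = 6 each). Over 10 pools it had 33.8 ± 16.4 and 48.9 ± 10.8 CPM (SD, n = 5 each, exact permutation p = 0.127), a ratio of 1.45. Whether the counting used strand was not stated, so reads from the overlap cannot be assigned to either gene. Among the markers, *PDGFRA*, a receptor of the hypoblast lineage, was lower in every methionine pool, at 114 ± 12.2 CPM against 148 ± 11.8 CPM (SD, n = 6 each), as were 32 genes in all (0.194%). Its separation over the 10 pools was fixed in advance by that over 12. The summed hypoblast markers nevertheless overlapped, at 565 to 1350 CPM in control and 863 to 1630 CPM in methionine pools, and so did the trophectoderm sums, at 224 to 11800 CPM and 194 to 14300 CPM. The part of these markers in the *AQP11* difference was not tested.

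**Figure D2:**
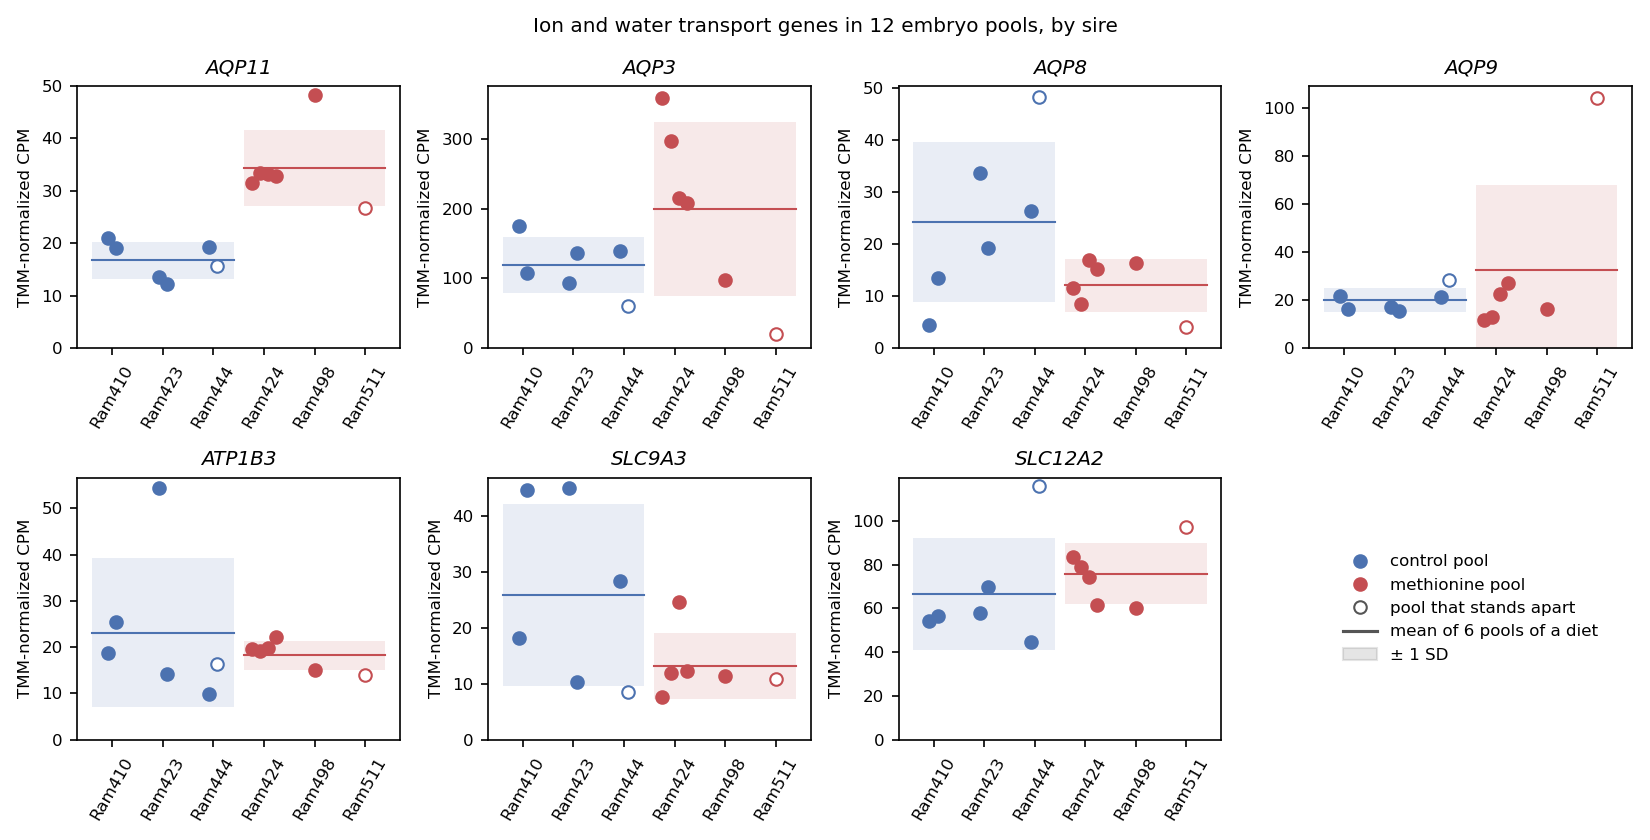
Each point is the TMM-normalized CPM of 1 embryo pool, placed over its sire, for 7 transport genes; lines and bands are the mean and 1 SD of the 6 pools of a diet (bands stop at 0), and open circles are Embryo444_2 and Embryo511_1. The *AQP11* pools of the methionine rams, at 26.8 to 48.2 CPM, all lie above those of the control rams, whereas the groups overlap for the other 6 genes.

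*AQP3*, the main aquaglyceroporin of many epithelia, varied widely between the sires of the methionine group. The control pools ranged from 60.9 to 175 CPM, and the methionine pools from 20.8 to 359 CPM. The 4 pools of Ram424 were above every control pool, at 208, 215, 297 and 359 CPM, while the pool of Ram498 had 97.6 CPM and that of Ram511 had 20.8 CPM. The methionine group thus held both the highest and the lowest pools, and its mean was 200 ± 124 CPM against 119 ± 39.9 CPM (SD, n = 6 each). The exact permutation p, taken on log2 levels, was 0.602.

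The fitted log2 fold change of *AQP3* was 0.75 ± 0.471 (SE, unadjusted p = 0.129, FDR = 0.706 by edgeR). It was -0.98 when Ram424 was left out, and 0.84 ± 0.291 (SE, unadjusted p = 0.0104, FDR = 0.31 by edgeR) when the pools that stood apart were left out. Among rams the means were 141, 115 and 100 CPM for control and 270, 97.6 and 20.8 CPM for methionine, with an exact permutation p of 0.8 on log2 levels. A higher level was therefore measured in the pools of 1 methionine ram, and not in those of the other 2.

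*AQP9*, a second aquaglyceroporin with a broad range of neutral solutes, overlapped between the groups, with 1 pool far above the others. Control pools ranged from 15.4 to 28.3 CPM. Methionine pools had 11.9 to 27.0 CPM for Ram424 and 16.3 CPM for Ram498, within or just below that range, but 104 CPM in Embryo511_1. The log2 fold change was 0.66 ± 0.482 (SE, unadjusted p = 0.186, FDR = 0.741 by edgeR) over 12 pools and -0.02 over 10, where the means were 18.4 ± 2.96 and 18.2 ± 6.46 CPM (SD, n = 5 each, exact permutation p = 0.778). The same pool had the highest sum of the 6 measured maternal cell markers, 362 CPM, of which the leukocyte marker *PTPRC* made up 254 CPM against 40.2 to 76.5 CPM in the 10 pools; no marker of the list was at 0 in any pool, and the part of these markers in the *AQP9* value was not tested.

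*AQP8*, an aquaporin that also conducts ammonia, was lower on average in the methionine pools, with overlapping groups. Control pools ranged from 4.52 to 48.1 CPM with a median of 22.8 CPM, and methionine pools from 3.97 to 16.9 CPM with a median of 13.4 CPM. The ends of the overall 12.1-fold range were the pools that stood apart, with 48.1 CPM in Embryo444_2 and 3.97 CPM in Embryo511_1. Means were 24.2 ± 15.4 and 12.1 ± 5.1 CPM (SD, n = 6 each, exact permutation p = 0.182), and the log2 fold change was -0.99 ± 0.468 (SE, unadjusted p = 0.0508, FDR = 0.631 by edgeR). Over the other 10 pools it was -0.52 ± 0.421 (SE, unadjusted p = 0.236 by edgeR).

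Of the pump, *ATP1B3*, which encodes a beta subunit that carries the catalytic subunit to the membrane, was the listed gene measured. Control pools ranged from 9.93 to 54.3 CPM with a median of 17.5 CPM, and methionine pools from 13.9 to 22.1 CPM with a median of 19.4 CPM. The methionine pools lay wholly inside the control range, whose top was set by Embryo423_1 at 54.3 CPM, while the other pool of Ram423 had 14.1 CPM. The log2 fold change was -0.33 ± 0.376 (SE, unadjusted p = 0.389, FDR = 0.835 by edgeR), and 0.11 without Embryo423_1. Over 10 pools it was -0.36 ± 0.388 (SE, unadjusted p = 0.363 by edgeR). On the log2 scale the SD between pools was 0.807 in the control and 0.246 in the methionine group, beside 0.271 from counting error.

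*SLC9A3*, the sodium-hydrogen exchanger NHE3 of outward-facing epithelial membranes, was lower on average in the methionine pools. Control pools had 18.1 and 44.6 CPM for Ram410, 45.0 and 10.3 CPM for Ram423, and 28.4 and 8.49 CPM for Ram444. Methionine pools ranged from 7.65 to 24.7 CPM with a median of 11.7 CPM. The groups overlapped because each control ram had a high and a low pool, 2.47- to 4.38-fold apart, and 3 of the 6 control pools were above every methionine pool.

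The means of *SLC9A3* were 25.8 ± 16.3 and 13.1 ± 5.9 CPM (SD, n = 6 each), with an exact permutation p of 0.13 over pools and of 0.1 over rams, the latter the smallest that rams allow. The log2 fold change was -0.97 ± 0.44 (SE) with an unadjusted p of 0.0413 and an FDR of 0.616 by edgeR. Over 10 pools it was -1.12 ± 0.415 (SE, unadjusted p = 0.0152, FDR = 0.332 by edgeR). With ram as a random effect it was -0.84 over 12 pools (unadjusted p = 0.179 by limma). Its within-ram SD of 0.953 on the log2 scale was the largest of the 7 genes, against 0.297 from counting error. The RefSeq annotation places an lncRNA, LOC121816834, over *SLC9A3*.

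The scaffold *SLC9A3R1*, which was not on the list of 8, had 8.49 and 9.91 CPM in the pools that stood apart, and 393 to 1050 CPM in the other 10 pools. Its 4 pools of Ram424 had 754, 903, 936 and 1050 CPM, against 422 to 818 CPM in the 5 control pools and 393 CPM in that of Ram498. The log2 fold change was 0.45 ± 0.809 (SE, unadjusted p = 0.585, FDR = 0.903 by edgeR) over 12 pools and 0.44 ± 0.275 (SE) over 10. Its direction was not stable, at -1.28 without Ram424, -0.65 by limma with ram as a random effect and -0.14 in sums per ram, and neither it nor *SLC9A3* passed the threshold.

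*SLC12A2*, the sodium-potassium-chloride cotransporter NKCC1, had the narrowest range of the 7 genes, from 44.7 to 116 CPM or 2.6-fold. Control pools had a median of 57.3 CPM and methionine pools, from 60.2 to 97.2 CPM, a median of 76.4 CPM. Each group had its highest value in its pool that stood apart, 116 CPM in Embryo444_2 and 97.2 CPM in Embryo511_1. Over 12 pools the means were 66.6 ± 25.6 and 75.9 ± 14.0 CPM (SD, n = 6 each, exact permutation p = 0.314), and the log2 fold change was 0.19 ± 0.252 (SE, unadjusted p = 0.47, FDR = 0.865 by edgeR). Over 10 pools the means were 56.7 ± 9.04 and 71.6 ± 10.4 CPM (SD, n = 5 each, exact permutation p = 0.0476), 1.26-fold higher in the methionine group, and the fit gave 0.33 ± 0.201 (SE, unadjusted p = 0.125 by edgeR). The exact permutation p over the 5 rams of these pools was 0.3.

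**Figure D3:**
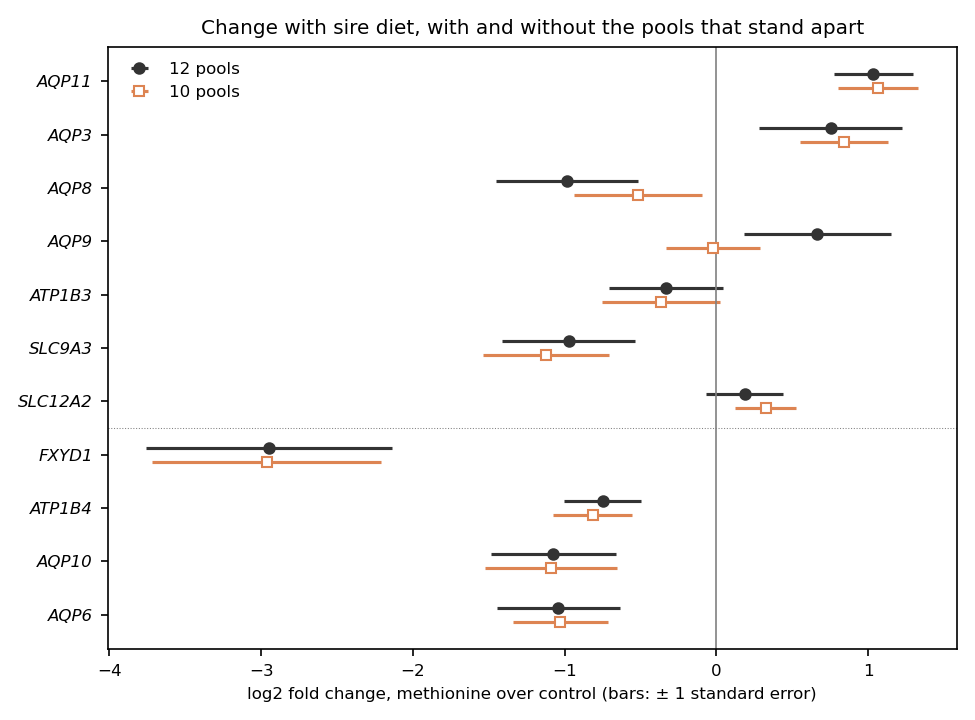
Points are edgeR log2 fold changes, methionine over control, and bars are 1 standard error, for the 7 transport genes (above the dotted line) and 4 other transport genes with an unadjusted p under 0.05 (below it), over 12 pools (filled) and over the 10 pools left without Embryo444_2 and Embryo511_1 (open). *AQP11* is at 1.03 and 1.06, *AQP9* goes from 0.66 to -0.02, and *FXYD1* is lowest at -2.95.

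Read together, none of the 7 genes was called by edgeR at an FDR of 0.05, nor was any of the 16488 genes (0%). At an unadjusted p under 0.05, *AQP11* was higher and *SLC9A3* lower, 2 of 7, beside 1306 of all genes (7.92%, with 586 higher and 720 lower). Over 10 pools *AQP11*, *AQP3* and *SLC9A3* were under 0.05, 3 of 7, beside 11.9% of all genes. Of the 7, DESeq2 again called *AQP11* alone (adjusted p = 0.0313), beside 0.637% of all genes. Of the methionine pools among these 10, all but that of Ram498 came from Ram424. These p-values thus largely treat pools that share a sire as independent. In sums per ram over the same pools the edgeR unadjusted p was 0.206 for *AQP3*, 0.00694 for *AQP11* and 0.00816 for *SLC9A3*. The FDR was 0.983 for each. No listed gene was lower in every methionine pool over either 12 or 10 pools, as 0.194% and 0.879% of all genes were. The median log2 fold change of the 7 was 0.19 over 12 pools and -0.02 over 10, beside 0.01 for all genes over 12 pools. With so few genes, these counts are a description and no test of the list.

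The wider machinery was read from lists of 67 genes in 5 groups, of which 55 had a row and 54 were tested. By edgeR no gene of the 54 was called, and at an unadjusted p under 0.05 there was 1 higher gene and 5 lower genes, 11.1% beside 7.92% of all genes. Of the 54, 20 had a fold change above 0 and 34 below, with a median of -0.11, beside 8325 above, 8163 below and a median of 0.01 over all genes. Over 10 pools the median was -0.18 beside -0.03 for all genes. The list of sodium pump subunits with their relatives and regulators (11 tested) had a median of -0.15 (-0.36 over 10 pools) and 2 lower genes. The aquaporins (8 tested) had a median of -0.31 with 1 higher and 2 lower genes, and the sodium-hydrogen exchangers with their scaffolds (11 tested) a median of -0.16 with 1 lower gene. The cation-chloride cotransporters (8 tested) and the other sodium, chloride and bicarbonate transport genes (16 tested) had medians of 0.09 and -0.10 and no gene under 0.05.

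The genes of the sodium pump list under 0.05 were *FXYD1* and *ATP1B4*. *FXYD1*, phospholemman, a small regulator of the pump, had 6.02, 12.0, 148, 25.0, 10.6 and 7.08 CPM in the control pools (in ram order) and 1.91, 5.10, 4.23, 7.87, 6.62 and 0 CPM in the methionine pools, where 0 in Embryo511_1 allows up to 2.97 CPM. The groups overlapped only at their edges, but the mean of the control group rested on the 148 CPM of Embryo423_1. Its log2 fold change was -2.95 ± 0.811 (SE, unadjusted p = 0.00212, FDR = 0.584 by edgeR), and -1.45 without that pool. *FXYD1* passed the filter on low counts mainly through the control group, where it was high. It had 8 to 207 counts in control and 0 to 16 in methionine pools, so its p-values are a description only. *ATP1B4*, a beta subunit relative best known from muscle, measured 75.9 ± 23.1 CPM in control and 45.1 ± 11.2 CPM in methionine pools (SD, n = 6 each), with a log2 fold change of -0.75 ± 0.252 (SE, unadjusted p = 0.00855, FDR = 0.584 by edgeR). In sums per ram *ATP1B4* was at -0.55 (unadjusted p = 0.134 by edgeR) and *FXYD1* at -2.97 (unadjusted p = 0.018).

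The aquaporins under 0.05 beside *AQP11* were both lower. *AQP6*, an aquaporin of internal vesicles known from the kidney, had control pools of 7.79 to 31.2 CPM and methionine pools of 1.98 to 12.4 CPM. The low ends of both groups were the pools that stood apart, and over the other 10 pools the groups did not overlap, at 14.9 to 31.2 CPM against 8.49 to 12.4 CPM (exact permutation p = 0.00794 with n = 5 each, the smallest possible; beside 0.879% of all genes). Its log2 fold change was -1.04 ± 0.404 (SE, unadjusted p = 0.0198, FDR = 0.585 by edgeR) over 12 pools. *AQP10*, known as an aquaglyceroporin of the human gut, measured 29.1 ± 16.3 CPM against 13.8 ± 5.53 CPM (SD, n = 6 each), with a log2 fold change of -1.07 ± 0.41 (SE, unadjusted p = 0.0182, FDR = 0.585 by edgeR). Whether its row stands for a working channel in sheep was not tested. Since 4 methionine pools share Ram424, the rams were also compared: in sums per ram the edgeR unadjusted p was 0.0506 for *AQP6* and 0.078 for *AQP10*, and the exact permutation p of *AQP6* over the rams of the 10 pools was 0.2. *AQP11* thus shared its direction over 12 pools with *AQP3* and *AQP9*, at 0.75 and 0.66, and differed in it from *AQP6*, *AQP8* and *AQP10*. The shared direction was not stable, since *AQP3* was at -0.98 without Ram424 and *AQP9* at -0.14 without Embryo511_1. *AQP2* was at -0.43 ± 0.561 (SE, FDR = 0.859 by edgeR), and *AQP7*, another aquaglyceroporin, was near 0 at -0.18 ± 0.303 (SE, FDR = 0.897 by edgeR).

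Of the other sodium, chloride and bicarbonate transport genes, *SLC4A7*, a sodium-bicarbonate cotransporter named for its high counts with no correction for length, had 151 ± 43.5 CPM in control and 117 ± 19.2 CPM in methionine pools (SD, n = 6 each). Its log2 fold change of -0.37 ± 0.244 (SE) did not pass the test (FDR = 0.721 by edgeR).

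Each of the 7 genes had a different closest gene over the pools. By Spearman correlation of log2 CPM over the 12 pools, among 10577 genes with at least 15 counts in every pool, *AQP3* was most like *EIF3E* (0.965, tied with *KCMF1*) and *AQP8* most like *PRKCE* (0.951). The nearest to *ATP1B3* was *SQOR* (0.923), to *AQP9* *DDHD1* (0.916), to *SLC12A2* *CLASP1* (0.916), to *SLC9A3* *ZNF572* (0.895) and to *AQP11* *BAP1* (0.874). Without the pools that stood apart these pairs had 0.855 to 0.976. Each value is the highest of many genes over 12 points that share sires and libraries, and is a description without a test.

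**Figure D4:**
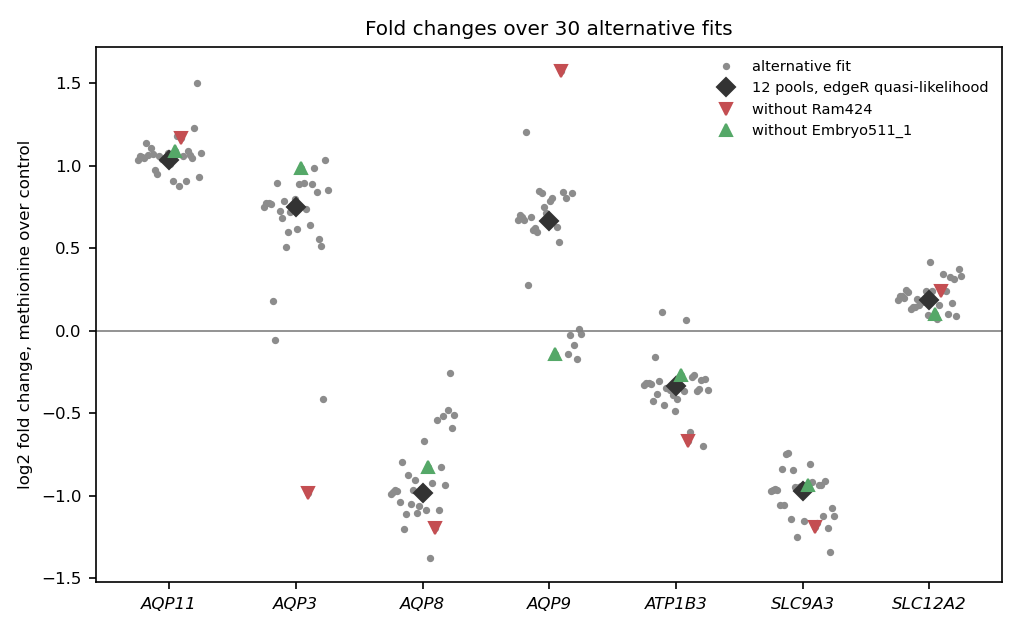
Points are log2 fold changes of 7 transport genes, methionine over control, in 30 alternative fits (other tests, filters and normalization, ram-level fits, pools or rams left out), with the edgeR fit over 12 pools as a diamond. *AQP11* stays between 0.88 and 1.50, whereas *AQP3* is at -0.98 without Ram424 and *AQP9* at -0.14 without Embryo511_1 and at 1.57 without Ram424.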

How the data were processed

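RNA of 12 pools of 5 embryos had been amplified as whole transcriptome before sequencing, so counts are not molecules. The authors trimmed single-end reads with Trimmomatic, aligned them to Oar_rambouillet_v1.0 with STAR (version not given in the sources used here) and deposited raw counts per gene; whether strand was used was not stated. A gene was kept if more than 3 pools had 15 or more counts for it (16488 of 20092 genes). Diet was tested over 12 pools in edgeR 4.0.16 (quasi-likelihood fit, TMM normalization, no covariate, Benjamini-Hochberg FDR under 0.05 over all genes, common biological coefficient of variation 0.45), in R 4.3.3. Alternatives were the likelihood-ratio test the study used, DESeq2 1.42.0, limma 3.58.1 with a random effect of ram (correlation within ram 0.263), and counts summed per ram. The standard error is the log2 fold change divided by the square root of F. Permutation tests were two-sided over all assignments, on mean log2 CPM plus 1 and not on the mean CPM printed beside them. Their code was checked against scipy 1.17.1. Pools stood apart where their median Spearman correlation was over 3 scaled MADs below the median. The scripts were tested on simulated data.

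Pools of 1 ram share a sire, ewes were nested within rams, and p-values over pools treat them as independent. The pools Embryo424_1 and Embryo424_2 were most alike (Spearman 0.955) but differed by more than counting noise (chi-square per degree of freedom 3.28), and were counted separately. Gene symbols followed the table; *NHERF1* was read as *SLC9A3R1*, and overlaps of genes came from RefSeq, assembly ARS-UI_Ramb_v3.0, from which no coordinates were taken. Although no measured value enters their definition, the 8 genes and the lists were chosen with earlier results of these data known. Named genes were the 8, list genes with an unadjusted p under 0.05, the gene with the highest mean CPM of each list (not corrected for length), and the most correlated gene of each; some of these are not reported here. The sperm methylation table was not used, since no annotation of its build was at hand, and no gene sequence is shown for the same reason.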

Additional observations from a re-analysis of the deposited data

Results flagged for a closer look

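In 14 groups of 6 pools (7 genes by 2 diets), 5 held a pool whose gap to its nearest neighbour, divided by the range of the group, was above Dixon's 95% critical value of 0.625. Chance alone flags about 1 in 20 groups where values are normally distributed, which CPM of low counts need not be. All flagged pools were the highest of their group, so the rate is no measure of how unusual they are. *ATP1B3* had 54.3 CPM in the control pool Embryo423_1 against 25.5 CPM in the next highest (gap over range 0.649). *AQP9* had 104 CPM in the methionine pool Embryo511_1 against 27.0 CPM (0.836). *AQP11* had 48.2 CPM in the methionine pool Embryo498_1 against 33.4 CPM (0.69), and that pool is the only one of its ram. *SLC9A3* had 24.7 CPM in the methionine pool Embryo424_3 against 12.3 CPM (0.728), and *SLC12A2* had 116 CPM in the control pool Embryo444_2 against 69.9 CPM (0.647). Of the 5 pools, Embryo511_1 and Embryo444_2 are the ones that stood apart over all genes.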

How the results depend on the processing

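Of 30 alternative fits, *AQP11*, *AQP8*, *SLC9A3* and *SLC12A2* kept their direction in all 30, *ATP1B3* in 28, *AQP3* in 27 and *AQP9* in 24. Leaving out pools or rams could hardly reverse *AQP11*, whose pools were separate by diet, so those fits are no check of its direction. Leaving out Ram498 or Ram511 repeats the fit without its only pool. These fits are counted under both names, including the reversal of *AQP9* without Embryo511_1. The log2 fold changes ran from 0.88 to 1.50 for *AQP11*, -1.38 to -0.25 for *AQP8*, -1.34 to -0.74 for *SLC9A3* and 0.07 to 0.42 for *SLC12A2*. *AQP11* was called by DESeq2 with 12 pools (1.06) and 10 pools (1.07), in each case the 1 called gene among the listed genes and among the transport lists, and by no other fit. *ATP1B3* ranged from -0.67 to 0.11 when 1 pool or 1 ram was left out (0.11 without Embryo423_1, 0.06 without Ram423), and was -0.70 without both Ram424 and the pools that stood apart. *AQP3* ranged likewise from -0.98 (without Ram424) to 0.99 (without Embryo511_1) and was 1.03 without both Ram498 and the pools that stood apart (FDR = 0.103 by edgeR); it was -0.058 by limma with a random effect of ram, and -0.41 without both Ram424 and the pools that stood apart. *AQP9* ranged from -0.14 (without Embryo511_1, which is also Ram511) to 1.57 (without Ram424). Without the pools that stood apart it was -0.024 by edgeR, -0.019 by DESeq2, -0.086 in sums per ram and -0.17 when Ram424 was also left out. The number of genes called, 0 by edgeR, was 5 by its likelihood-ratio test, 16 by DESeq2, 1 without the pools that stood apart, 2 when Ram424 was also left out, and 103 by DESeq2 without those pools. Fits that combine the pools that stood apart with another choice, and the sum of Embryo424_1 with Embryo424_2, were added after seeing the data.

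Counts that fall to between 4 and 23 in the lowest pool limit *AQP8*, *SLC9A3*, *ATP1B3*, *AQP11*, *AQP3* and *AQP9*, and 3 rams per diet cannot give an exact p below 0.1. No paired analysis was possible because the groups share no rams or replicate numbers. The order of the genes by level, the ratio of *ATP1B3* to *ATP1B1* and the sperm cytosines near these genes were planned and not run, for want of transcript lengths, of values for *ATP1B1* and of an annotation of the build.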
